A study of Mus musculus with 30 samples.

Results

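The skeletal muscle sarcomere and junction genes followed here are 37 genes that build the contractile apparatus of muscle, its calcium release system and the muscle side of the nerve contact. Members were taken by gene name, with earlier results of these data known but by no rule on measured values, as the probe sets annotated to each name in the array table, with the brightest probe set standing for its gene. All 37 had a probe set, and 36 of them were among the 15136 genes tested. Chrnd, the delta subunit of the acetylcholine receptor, exceeded the detection limit used here on 1 of 30 arrays (range 4.13 to 5.35) and was not tested.

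The 30 microarrays came from primary limb bud cells of CD-1 mouse embryos at E10.5, and the study asked how BMP4, a secreted bone morphogenetic protein, acts on early limb mesenchyme. The early population was the distal part of the hind limb, the intermediate population the distal part of the fore limb, and the late population the remaining proximal part of the fore limb. Each was measured in control medium on days 0, 1 and 2, and with 20 ng/ml BMP4 on days 1 and 2. The resulting 15 groups held 2 arrays each, labelled biological replicates, with RNA from dishes set up from about 280 embryos. The labels name no transgene, deletion or cell sort for any group, so the dishes held whatever cells the dissected pieces contained. The sources also mention E11.5 limb buds, but no array is labelled with that age.

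Skeletal muscle cells of the limb do not arise from limb mesenchyme. Their precursors migrate into the bud from the somites, proximal parts first, and then switch on myogenic transcription factors, fuse and assemble sarcomeres. In a sarcomere, myosin thick filaments slide along actin thin filaments, the troponin complex makes this sliding depend on calcium, and titin, nebulin and the Z-disc proteins hold the filaments in register. Calcium is released by a voltage sensor coupled to the ryanodine receptor, and the signal to contract reaches the fibre through acetylcholine receptors. Embryonic fibres use isoforms that adult muscle later replaces, among them embryonic myosin (Myh3), cardiac actin (Actc1) and the gamma receptor subunit (Chrng).

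Values are log2(signal + 16), on which a signal of 0 gives 4, and fold changes are differences on that scale, which understates changes of dim genes. Array values are given in the order replicate 1, replicate 2. Errors are standard errors of the limma fit (n = 2 arrays per group), and a gene was called when its adjusted p, by limma with Benjamini-Hochberg adjustment over all 15136 genes, was under 0.05. Levels of different genes cannot be compared, because probe sets differ in brightness. In tissue that was not sorted, fewer muscle cells and less RNA per muscle cell cannot be told apart.

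Median signals per array lay between 33.9 and 46.4, and replicates correlated with r from 0.97 to 0.984 over genes, which are not independent. Some arrays stood apart. On day 0 the replicate 2 arrays went against their labels: Pitx1, a hind limb gene, read 9.74 and 5.90 in early and 6.15 and 9.43 in intermediate, while Tbx5, a fore limb gene, read 4.47 and 8.50 in early and 8.47 and 4.68 in intermediate. Met and Myf5, which mark migrating muscle precursors and early myoblasts, read 8.15 and 6.33 on the library labelled late replicate 1, against 5.25 and 4.39 on late replicate 2 and 7.81 and 5.29 on the library labelled early replicate 2. These values put the day 0 labels in doubt, and the day 0 groups below are named by their labels only. For comparisons with day 0, counts are also given from the replicate 1 arrays alone, and changes of single genes where they moved by over 0.5.

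A second set of 4 arrays, replicate 2 of each intermediate culture group, carried heart muscle transcripts. Nppa, the atrial natriuretic peptide gene, read 7.72 to 8.59 on these 4 arrays and 4.29 to 6.59 on the other 26. Myl7, the atrial light chain, read 6.20 to 7.50 against 4.08 to 5.80, and Myh6, the alpha heavy chain of heart, 5.18 to 6.65 against 4.09 to 5.08. Nppb and Nkx2-5 overlapped between these arrays and the rest, Mybpc3 did not (7.39 to 7.54 against 6.43 to 7.28), and Tnni3, the heart form of troponin I, stayed near the floor at 4.40 to 4.94. The mean of the 7 heart genes in late cultures (5.19 to 5.55) overlapped that on day 0 (5.17 to 5.80). Several of the muscle genes are also made by heart muscle, and the part of this signal in their intermediate values was not tested.

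Within the distal populations the replicates also differed in muscle genes. In early cultures replicate 1 was the higher array for 29 of 36 genes on day 1, 22 on day 1 with BMP4, 32 on day 2 and 31 on day 2 with BMP4. In intermediate cultures replicate 2 was higher for 30 of 36 on day 1, 13 on day 1 with BMP4, 30 on day 2 and 29 on day 2 with BMP4. Late control cultures were closer, with a median gap (replicate 1 minus replicate 2) of 0.12 on day 1 and -0.07 on day 2, against 0.56 and 0.87 in early.

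The promoters of 4 genes are shown because they stand for the patterns described next: the actins Actc1 and Acta1 rose in cultures of every population, and the receptor subunits Chrna1 and Chrng were called higher against day 0 in late cultures alone among the 3 populations. They were picked after their values were seen. Each stretch is the 250 bases before the RefSeq gene start in GRCm38.p6, printed 5′ to 3′ on the gene's strand. Capitals mark the E-box CANNTG, the motif bound by myogenic factors such as MyoD and myogenin, and the CArG box, bound by serum response factor.
Actc1 (chr2:114052876-114053125, strand -): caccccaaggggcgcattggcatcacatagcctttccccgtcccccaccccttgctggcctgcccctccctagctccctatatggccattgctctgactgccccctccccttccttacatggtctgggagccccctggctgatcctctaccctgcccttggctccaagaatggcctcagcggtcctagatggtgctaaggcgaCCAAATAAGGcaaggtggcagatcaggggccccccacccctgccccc
Acta1 (chr8:123894776-123895025, strand -): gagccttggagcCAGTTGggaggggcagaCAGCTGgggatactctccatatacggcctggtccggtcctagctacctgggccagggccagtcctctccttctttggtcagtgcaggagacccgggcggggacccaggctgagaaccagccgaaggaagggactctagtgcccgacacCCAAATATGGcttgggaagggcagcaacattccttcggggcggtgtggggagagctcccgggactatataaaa
Chrna1 (chr2:73580339-73580588, strand -): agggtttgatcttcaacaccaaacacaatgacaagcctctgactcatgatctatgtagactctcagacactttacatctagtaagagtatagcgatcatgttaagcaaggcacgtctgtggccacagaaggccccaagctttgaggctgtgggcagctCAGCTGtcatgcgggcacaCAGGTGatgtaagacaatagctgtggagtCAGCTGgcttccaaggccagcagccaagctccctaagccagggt
Chrng (chr1:87205561-87205810, strand +): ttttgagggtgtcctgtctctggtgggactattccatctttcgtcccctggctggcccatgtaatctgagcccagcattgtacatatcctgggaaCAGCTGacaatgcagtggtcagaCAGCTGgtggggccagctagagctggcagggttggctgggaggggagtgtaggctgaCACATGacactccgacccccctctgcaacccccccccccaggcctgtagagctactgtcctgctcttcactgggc

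Counting back from the gene start, Actc1 had a CArG box at -47 to -38 and no E-box in this window. Acta1, the skeletal actin, had a CArG box at -73 to -64 and E-boxes at -238 to -233 and -221 to -216. Chrna1 had 3 E-boxes, at -92 to -87, -73 to -68 and -44 to -39, and Chrng had 3, at -155 to -150, -132 to -127 and -75 to -70. Windows were held for 32 of the 37 genes (36 windows, since 4 genes had 2), and motifs were searched on both strands. The E-box CANNTG was in 83.3% of these windows and 66.2% of all 32851 windows of the table. Its form CAGCTG, which is part of that count, was in 47.2% against 13.0%, the CArG box in 13.9% against 1.5%, and the MEF2 site in 13.9% against 2.9%. The MCAT motif CATTCC was in 22.2% against 12.6% and TATAAA in 19.4% against 12.4%, and 1 of the 5 MEF2 matches overlapped TATAAA. A match describes letters only.

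Muscle genes rose during control culture most widely in the late population, and the distal counts depended on single arrays, as given below. Between day 0 and day 2 the late population had 34 of 36 genes called higher (background over all genes 16.9%), the early population 14 (14.8%) and the intermediate population 15 (17.6%). None was called lower, against 10.6%, 9.31% and 12.7% of all genes. The median change of the 36 genes was 2.83 in late, 0.91 in early and 0.78 in intermediate cultures, where that of all genes was 0.01, 0 and 0. The mean level of the 36 genes on an array ran from 4.87 to 5.25 on day 0, from 5.41 to 7.04 in the 16 distal culture arrays and from 6.91 to 8.38 in the 8 late culture arrays. In the same late comparison 5 of 6 cartilage genes rose, and all 4 red cell genes and 4 of 5 endothelial genes fell.

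With the day 0 replicate 1 arrays alone, 27, 11 and 7 genes were called in late, early and intermediate cultures, and the late calls lost were Myh7, Mybpc1, Tnni2, Myom1, Tcap, Des and Ryr1. The median change was then 2.59, 0.97 and 0.83. The late change moved by over 0.5 for 6 genes: it was 1.08 for Chrnb1, 2.38 for Atp2a1, 2.54 for Chrna1, 4.33 for Tnnt1, 0.90 for Myom1 and 2.57 for Myh7. In early cultures it moved that far for Myom1 (2.01), Des (1.00) and Ckm (0.32), and in intermediate ones for Des (-0.02). Counts from these reduced fits, above and below, have no all-gene share of their own here. In the full fit 14.8% of all genes in early and 17.6% in intermediate cultures were called higher. The intermediate count above is near that share, and the smallest distal counts below are under these shares. Without the 4 arrays with heart transcripts, 5 intermediate calls were made: Myl1, Actc1, Acta1, Tnni1 and Myom1. Leaving out early day 2 control replicate 1 left the same 5 genes in the early population, as did leaving out intermediate day 2 control replicate 2 in the intermediate one. Without either intermediate day 0 array, 9 intermediate calls were made.

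**Figure D1:**
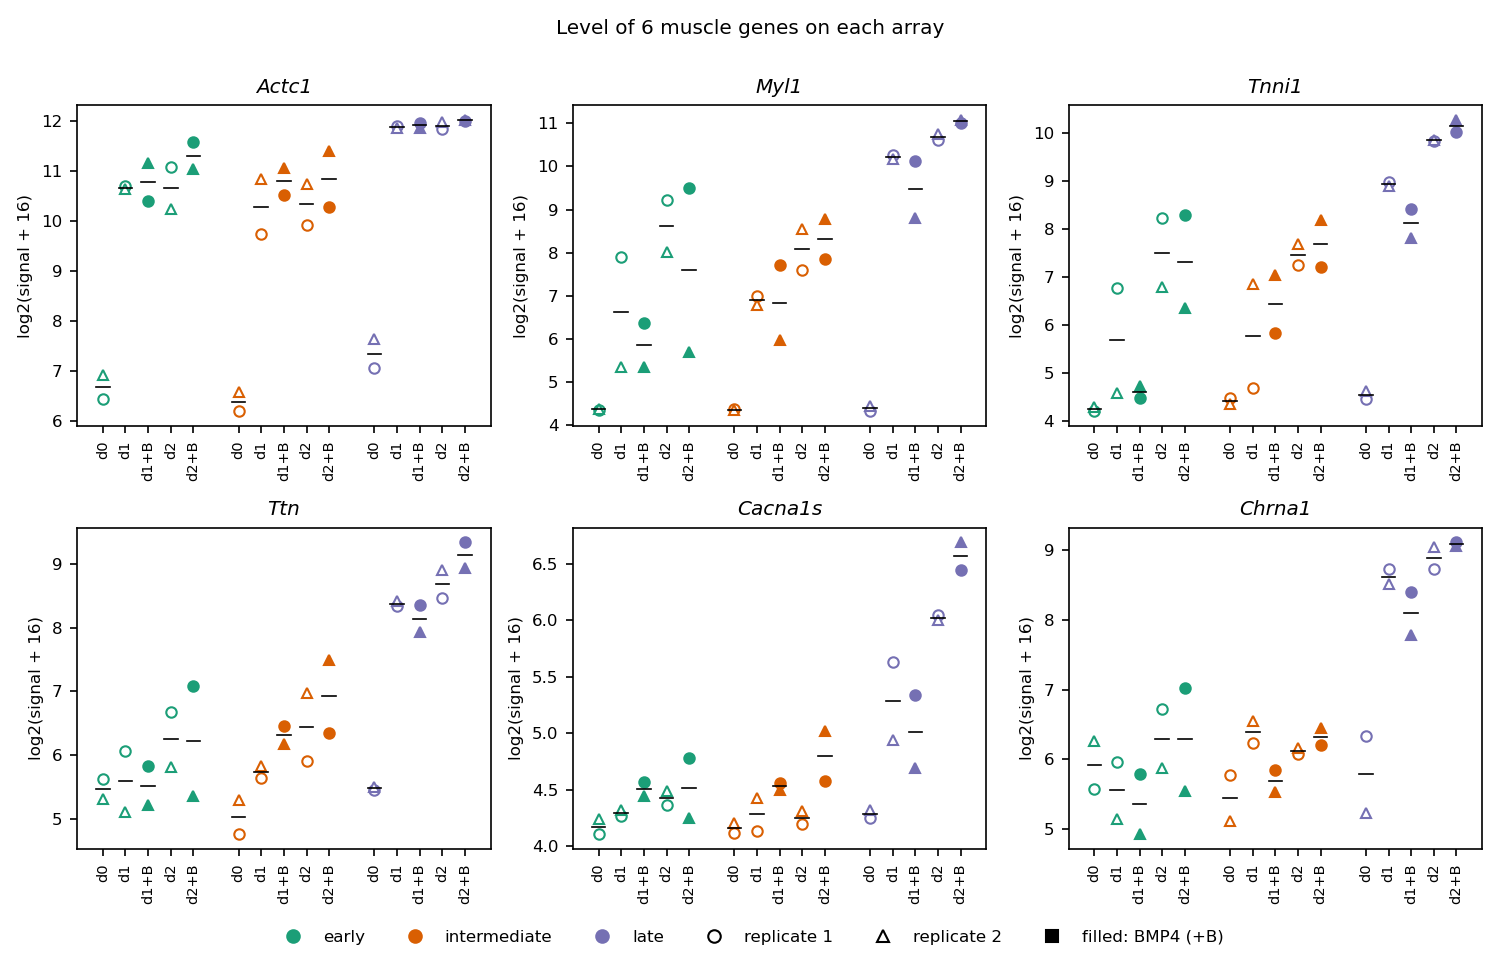
Level of 6 muscle genes on each of the 30 arrays, as log2(signal + 16), by population (colour), day (d0 to d2) and BMP4 (filled, +B), with replicate 1 as circles, replicate 2 as triangles and the group mean as a bar. The 8 late culture arrays of Actc1 lie between 11.83 and 12.02, above the 16 distal ones at 9.73 to 11.57, while Cacna1s reaches its highest level, 6.69, in late cultures on day 2.

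Both actins of the thin filament rose in every population. Actc1, the actin of heart and of embryonic skeletal muscle, read 6.45 and 6.93 on day 0, 10.69 and 10.64 on day 1 and 11.08 and 10.23 on day 2 in early cultures. In intermediate cultures it read 6.20 and 6.58, then 9.73 and 10.83, then 9.92 and 10.74. In late cultures it read 7.06 and 7.64, then 11.89 and 11.85, then 11.83 and 11.97. No culture array overlapped a day 0 array in any population. The day 2 changes were 3.97 ± 0.38, 3.94 ± 0.38 and 4.55 ± 0.38 in early, intermediate and late (limma adjusted p = 3.08e-07, 1.91e-07 and 5.81e-08), and without the 4 arrays with heart transcripts the intermediate value was 3.53 ± 0.34.

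Acta1, the actin of adult skeletal muscle, rose from 6.28 and 6.46 on day 0 to 9.99 and 9.96 on day 1 and 10.11 and 10.48 on day 2 in late cultures. Its 16 distal culture arrays ran from 7.85 to 10.19 with a median of 8.91, so they overlapped the late arrays, which ran from 8.78 to 10.71. The day 2 changes were 2.72 ± 0.45 in early, 2.29 ± 0.45 in intermediate and 3.93 ± 0.45 in late (limma adjusted p = 0.000141, 0.000567 and 2.32e-06).

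All 8 thick filament genes rose in late cultures by day 2, by 1.37 to 6.30, while 4 rose in early and 5 in intermediate cultures. Myl1, an essential light chain of fast muscle myosin, was at the floor on all 6 day 0 arrays (4.33 to 4.46). In control medium it read 7.90 and 5.36 in early, 7.01 and 6.78 in intermediate and 10.27 and 10.17 in late cultures on day 1. On day 2 it read 9.23 and 8.01, 7.60 and 8.56, and 10.61 and 10.76. The late arrays were the highest on both days, and the early pair on day 1 was the widest apart. Day 2 changes were 4.24 ± 0.86, 3.72 ± 0.86 and 6.30 ± 0.86 (limma adjusted p = 0.000942, 0.00223 and 1.65e-05).

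Myh8, the perinatal myosin heavy chain, was dim, passing the detection limit on 5 arrays. It read 4.16 and 4.57 on day 0, 5.48 and 5.32 on day 1 and 6.55 and 6.65 on day 2 in late control cultures, and 4.36 to 5.32 on the 16 distal culture arrays. Late day 2 lay above all of these, with a change from day 0 of 2.23 ± 0.27. Myh3, the embryonic heavy chain, read 4.76 and 4.59 on day 0 and 9.82 and 10.21 on day 2 in late cultures, a change of 5.34 ± 0.87. Every late culture array (8.73 to 10.34) lay above every distal one (4.15 to 8.66).

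The other thick filament genes rose by 1.37 to 4.79 in late cultures. Mylpf, the regulatory light chain of fast fibres, and Myl4, an embryonic and atrial light chain, rose in all 3 populations, with late culture levels of 8.39 to 10.41 and 7.03 to 10.24. Mybph, a myosin binding protein, read 4.08 and 4.05 on day 0 and 7.81 and 8.11 on day 2 in late cultures and 6.30 and 4.25 in early cultures on day 2, so the early replicates were far apart. Myh7, the slow and cardiac heavy chain, reached 7.70 in late cultures and 7.48 in intermediate ones, the latter on an array with heart transcripts. Its intermediate control pairs were 5.31 and 7.13 on day 1 and 4.95 and 6.87 on day 2, split by replicate. Mybpc1, the slow myosin binding protein C, rose by 1.37 in late cultures.

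Troponins showed the same order. All 7 rose in late cultures (1.27 to 5.31), and 4 rose in each distal population. Tnni1 is the slow form of troponin I, the inhibitory subunit of the complex. In late cultures it read 4.46 and 4.63 on day 0, 8.98 and 8.91 on day 1 and 9.84 and 9.86 on day 2. Early cultures read 6.78 and 4.60 on day 1 and 8.24 and 6.79 on day 2, and intermediate cultures 4.70 and 6.85, then 7.25 and 7.69. Late arrays were above both distal pairs on each day, and the distal pairs of day 1 were split by more than 2 units. Its late change was 5.31 ± 0.68 (limma adjusted p = 7.9e-06).

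Tnnc1, the calcium sensor of slow and heart muscle, read 5.62 and 5.89 on day 0 and 10.90 and 10.95 on day 2 in late cultures, a change of 5.17 ± 0.69 (limma adjusted p = 1.39e-05). Its distal culture arrays ran from 6.12 to 9.64, so that all 24 culture arrays were above the 6 day 0 arrays (5.43 to 5.89). Tnnt1, which ties slow troponin to tropomyosin, ran from 8.88 to 10.19 in late cultures and from 4.31 to 8.08 in distal ones, without overlap. Tnnc2 and Tnnt3, of fast fibres, and Tnnt2, of heart and embryonic muscle, ran from 7.28 to 9.81, 5.53 to 7.46 and 6.89 to 8.71 in late cultures, and each overlapped the distal range. Tnni2, the fast troponin I, was dim but did not overlap, at 5.31 to 6.58 against 4.33 to 5.27.

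Among the 10 scaffold, Z-disc and M-band genes, 9 rose in late cultures, 3 in early and 4 in intermediate ones by day 2. Ttn encodes titin, the spring that spans from Z-disc to M-band, and read 5.45 and 5.50 on day 0, 8.34 and 8.42 on day 1 and 8.46 and 8.91 on day 2 in late cultures. Distal culture arrays of Ttn ran from 5.11 to 7.49, below all 8 late ones (7.93 to 9.34). Of the 4 other Ttn probe sets that passed the filter, 1 was called in the late comparison (2.36, against 3.21 ± 0.47 for the brightest) and the rest changed by 0 to 0.41. Actn2, the alpha-actinin that anchors actin in the Z-disc, read 4.56 and 5.32 on day 0 and 8.55 and 8.77 on day 2 in late cultures, a change of 3.72 ± 0.53. Distal culture arrays of Actn2 ran from 4.68 to 7.62, overlapping the late range of 6.98 to 8.85.

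Neb, which encodes the thin filament ruler nebulin, was at the floor on all day 0 arrays (4.03 to 4.09), at 4.04 to 5.60 in distal cultures and at 5.86 to 7.87 in late ones. Klhl41, a nebulin stabiliser, Myoz2, a Z-disc protein, and Smpx, a small muscle protein, rose in late cultures by 2.77, 2.20 and 2.25. Late levels of Klhl41 (6.90 to 7.92) were above every distal array, and those of Myoz2 and Smpx overlapped them. Myom1, an M-band protein, differed from this order: its changes were 1.49 in early, 1.16 in intermediate and 1.46 in late cultures, and its late culture range of 5.83 to 6.87 overlapped the distal range of 5.37 to 6.78.

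Des, the intermediate filament desmin, was unstable between replicates, with day 0 pairs of 4.54 and 6.60 in early, 6.32 and 4.72 in intermediate and 6.17 and 5.18 in late. All its late culture arrays (6.99 to 7.99) were still above all distal ones (4.62 to 6.98), and its other probe set changed by 0.35 in late cultures and was not called. Tcap, the titin cap, rose by 0.58 in late cultures, and its ranges on day 0, in distal and in late cultures overlapped. Ldb3, another Z-disc protein, was not called (0.06 ± 0.25), although 1 of its 2 other probe sets was (2.27, limma adjusted p = 3.7e-05).

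**Figure D2:**
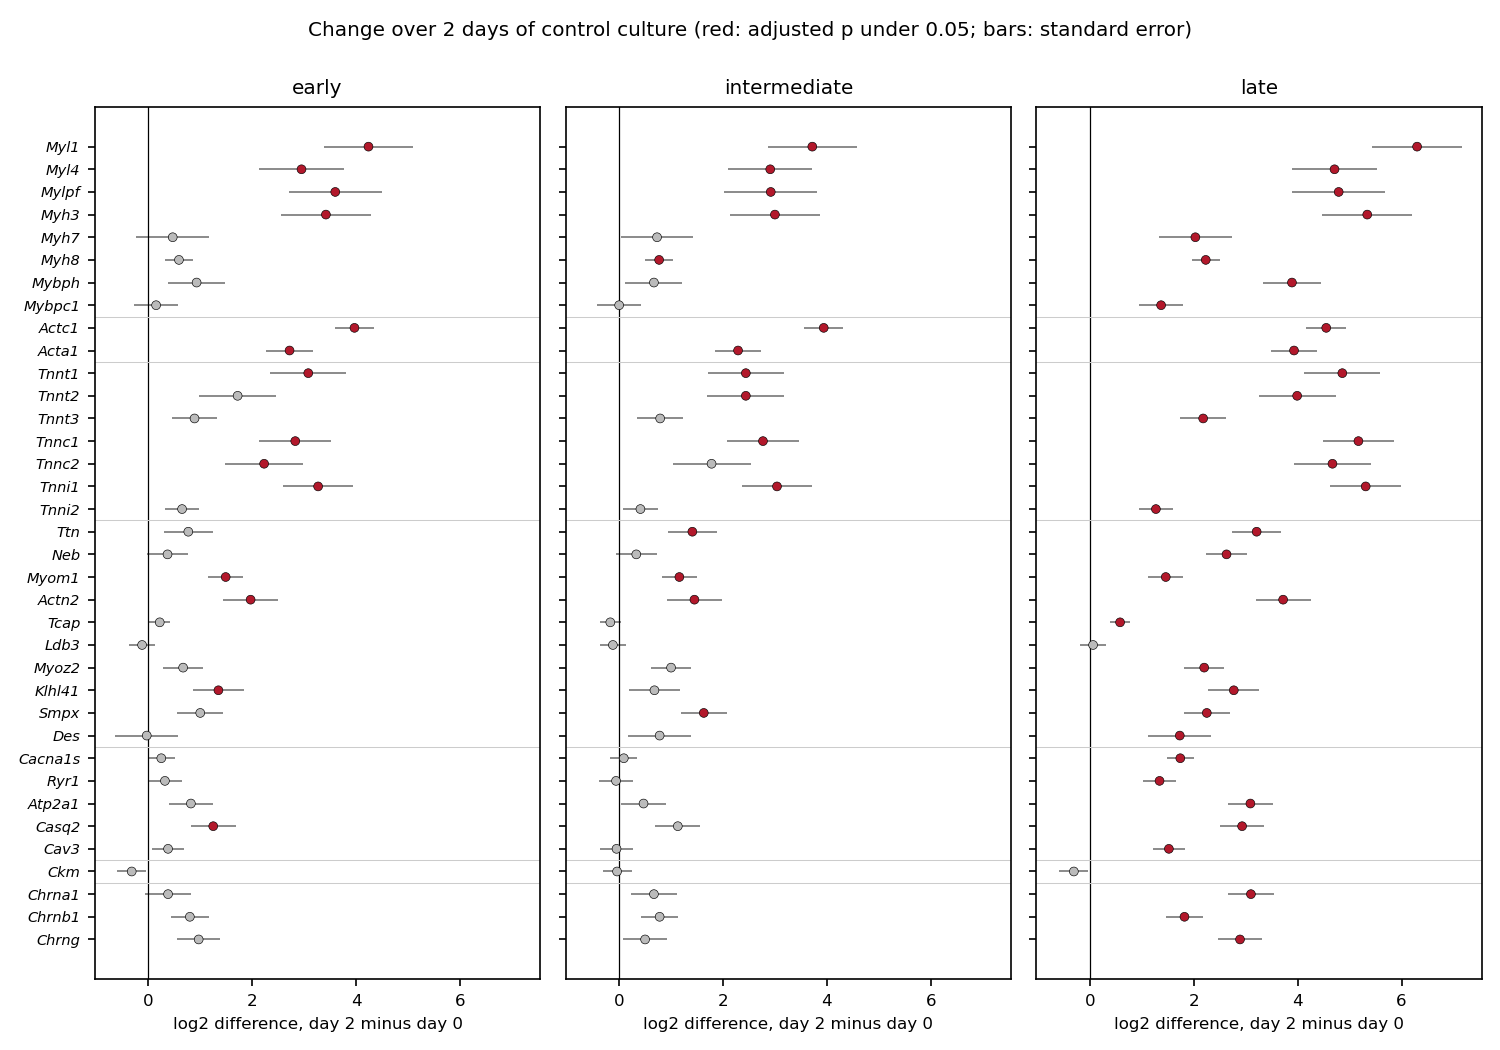
Difference of log2(signal + 16) between day 2 and day 0 control cultures for the 36 muscle genes tested, by population; points are limma estimates, bars standard errors, and red points have an adjusted p under 0.05. Late cultures have 34 red points and the early and intermediate cultures 14 and 15, with Ckm and Ldb3 grey throughout.

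The 5 genes of calcium handling and the surface membrane all rose in late cultures by day 2, while 1 rose in early and none in intermediate cultures. Atp2a1, the fast calcium pump of the sarcoplasmic reticulum, read 6.36 and 4.94 on day 0 and 8.74 and 8.75 on day 2 in late cultures, and its change was 3.09 ± 0.43. Casq2, a calsequestrin that stores calcium there, read 5.84 and 5.63, then 8.64 and 8.68 (2.93 ± 0.43), and was the gene that rose in early cultures (1.25). All late culture arrays of Atp2a1 (8.47 to 9.52) were above the distal ones (5.96 to 7.55), and those of Casq2 overlapped them (6.84 to 9.07 against 5.31 to 7.41).

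Cacna1s, the voltage sensor, stayed between 4.11 and 5.02 on all day 0 and distal culture arrays. Late cultures read 5.63 and 4.94 on day 1 and 6.05 and 6 on day 2, a day 2 change of 1.74 ± 0.26. Ryr1, the calcium release channel, ran from 5.90 to 7.08 in late cultures and from 4.29 to 5.58 in distal ones, without overlap. Cav3, the muscle caveolin, passed the detection limit on 3 arrays, with late control values of 5.83 and 5.69 on day 2.

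Ckm, the creatine kinase of mature muscle, did not follow the others. It read 6.62 and 6.65 on day 0, 6.66 and 6.02 on day 1 and 6.36 and 6.30 on day 2 in late cultures, so that late day 2 lay slightly below day 0, while the early and intermediate groups overlapped. Its late change was -0.31 ± 0.28 (limma adjusted p = 0.473), and its other probe set was not called either (-0.43).

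All 3 tested subunits of the acetylcholine receptor rose in late cultures by day 2, and none was called in the distal populations. Chrna1, the alpha subunit that binds acetylcholine, read 6.34 and 5.23 on day 0, 8.73 and 8.51 on day 1 and 8.73 and 9.04 on day 2 in late cultures. Early cultures read 5.57 and 6.26, then 5.96 and 5.15, then 6.72 and 5.87, and intermediate ones 5.77 and 5.11, then 6.23 and 6.55, then 6.07 and 6.16. Late cultures were apart from everything else, the early pairs overlapped their day 0 arrays, and the intermediate pairs lay just above theirs. The day 2 change of Chrna1 was 3.10 ± 0.44 in late (limma adjusted p = 2.33e-05), against 0.38 ± 0.44 in early and 0.67 ± 0.44 in intermediate.

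Chrng, the subunit of the fetal receptor, read 4.61 and 4.37 on day 0 and 7.51 and 7.26 on day 2 in late cultures, a change of 2.89 ± 0.42 (limma adjusted p = 3.32e-05). Its distal culture arrays ran from 4.58 to 6.44, below the late range of 6.74 to 7.94. Chrnb1, the beta subunit, behaved otherwise on day 1, when it rose in all 3 populations, by 1.22 ± 0.36 in early, 1.28 ± 0.36 in intermediate and 1.97 ± 0.36 in late. Its late and distal culture ranges overlapped slightly (6.92 to 8.03 and 5.82 to 7.01).

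Most of the late rise was present after 1 day. Between day 0 and day 1 the late population had 28 of 36 genes called higher (background 11.9%), the intermediate population 6 (13.4%) and the early population 3 (9.51%). The early genes were Actc1, Acta1 and Chrnb1, and the intermediate ones also Myl1, Myom1 and Smpx. Median changes were 2.55, 0.73 and 0.53. With day 0 replicate 1 alone the counts were 24, 4 and 4.

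The distal counts of day 1 depended on single arrays. Without the 4 arrays with heart transcripts, or without intermediate day 1 control replicate 2 alone, only Actc1 and Acta1 were called in intermediate cultures, and without either intermediate day 0 array 3 genes were. Leaving out early day 1 control replicate 2 gave 6 early calls, with Myl1, Mylpf, Tnnt1 and Tnni1 in place of Chrnb1.

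From day 1 to day 2, 1 gene was called: Myh8 rose by 1.20 ± 0.27 in late cultures (limma adjusted p = 0.036; background 0.674%). The call was lost without any 1 of the 4 arrays compared. No muscle gene was called in early (1.06%) or intermediate cultures (0.714%). There 4 and 3 of them had an unadjusted p under 0.05, as did 1609 and 1339 of all genes. Median changes over this day were 0.50 in early, 0.34 in intermediate and 0.40 in late, against 0.01, 0.01 and -0.01 for all genes. Tnni1 in early cultures went from 6.78 and 4.60 to 8.24 and 6.79, a difference no larger than the gap between its day 1 arrays.

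Levels of the populations were then compared on the same day. On day 0 no muscle gene was called between any pair, nor was any gene called higher for the first population of a pair among all genes (0%, 0% and 0%). At an unadjusted p under 0.05 there were 0, 1 and 0 muscle genes for late minus early, late minus intermediate and intermediate minus early. Of all genes there were 336, 506 and 514. The day 0 labels are in doubt, as given above. On day 1, 12 muscle genes were higher in late than in early cultures (background 0.396%) and 13 higher in late than in intermediate cultures (0.548%). On day 2 these counts were 6 (0.357%) and 13 (0.614%). The early and intermediate cultures did not differ in any muscle gene by this test on day 1 (0.0264%) or day 2 (0.225%). On both days 0 muscle genes had an unadjusted p under 0.05, against 634 and 1003 of all genes.

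**Figure D3:**
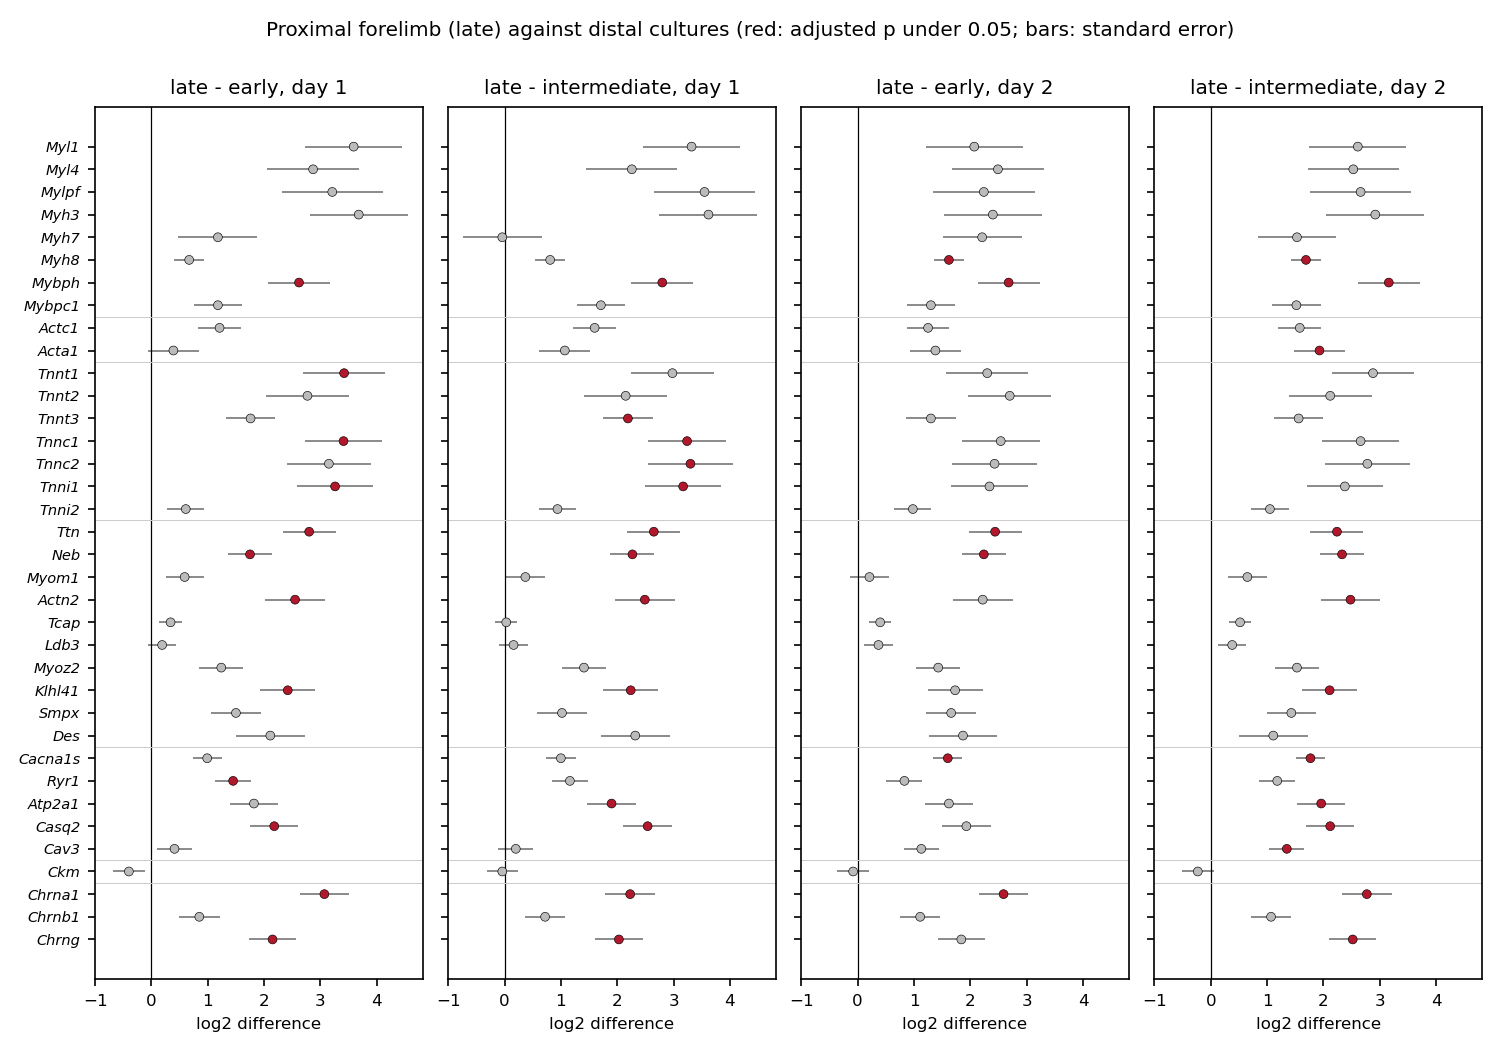
Difference of log2(signal + 16) between late and each distal population in control cultures of days 1 and 2 for the 36 muscle genes; points are limma estimates, bars standard errors and red points have an adjusted p under 0.05. Nearly all points lie right of 0, with medians of 1.79 to 2.09, and those of Ckm, Tcap and Ldb3 lie close to it.

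In order of adjusted p, Chrna1 was 3.07 ± 0.44 higher in late than early cultures on day 1 (limma adjusted p = 0.00358) and Ttn 2.80 ± 0.47 (0.00692), followed by Chrng (2.15 ± 0.42) and Casq2 (2.18 ± 0.43). In late minus intermediate on day 1 the smallest adjusted p values were those of Casq2 (2.54 ± 0.43, limma adjusted p = 0.00536), Neb (2.27 ± 0.39), Ttn (2.65 ± 0.47) and Mybph (2.80 ± 0.55), while the largest called differences were those of Tnnc2 (3.30 ± 0.75), Tnnc1 (3.24 ± 0.69) and Tnni1 (3.17 ± 0.68). The list of day 1 thus mixed receptor, calcium store, troponin and filament scaffold genes. Called against both distal populations on day 1 were Mybph, Tnnc1, Tnni1, Ttn, Neb, Actn2, Klhl41, Casq2, Chrna1 and Chrng.

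On day 2, Cacna1s was higher in late cultures by 1.60 ± 0.26 against early (limma adjusted p = 0.00495) and 1.77 ± 0.26 against intermediate (0.00138). Myh8 was higher by 1.62 ± 0.27 and 1.69 ± 0.27, Chrna1 by 2.59 ± 0.44 and 2.77 ± 0.44, Neb by 2.24 ± 0.39 and 2.33 ± 0.39, and Chrng by 2.52 ± 0.42 against intermediate. Mybph and Ttn were called in both comparisons too. Actc1, although its late arrays were above all distal ones, was not called in any of the 4 comparisons, and Acta1 was called against intermediate on day 2 (1.93 ± 0.45, limma adjusted p = 0.0498).

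These counts moved with the pseudocount and with single arrays. A pseudocount of 1 left 3 (late minus early) and 5 (late minus intermediate) calls on day 1 and 0 and 3 on day 2. Late minus early on day 1 gave 2, 1, 7 and 0 calls without late replicate 1, late replicate 2, early replicate 1 and early replicate 2, and late minus intermediate gave 2, 0, 0 and 4 without late replicates 1 and 2 and intermediate replicates 1 and 2. On day 2, late minus early gave 0 calls without either late array or early replicate 2 and 8 at most, and late minus intermediate gave 3, 4, 4 and 7 calls without late replicates 1 and 2 and intermediate replicates 1 and 2, with Cacna1s and Chrna1 called each time. Without the 4 arrays with heart transcripts, late minus intermediate had 7 calls on day 1 and 12 on day 2. With the day 0 replicate 1 arrays alone, late minus early on day 1 had 7 calls, although no day 0 array enters that difference.

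Counted by array, without a test, 12 of the 36 genes (33.3%) had all 8 late culture arrays above all 16 distal culture arrays, against 0.462% of all genes. They were Myh3, Actc1, Tnnt1, Tnni2, Ttn, Neb, Klhl41, Des, Ryr1, Atp2a1, Chrna1 and Chrng, and the distal arrays included the 4 with heart transcripts. All 24 culture arrays lay above all 6 day 0 arrays for Myl1, Actc1, Acta1 and Tnnc1, which is 11.1% of the 36 genes and close to the 8.79% of all genes.

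Whether the rise itself differed between populations was tested as a difference of changes, a comparison added after the data were seen. From day 0 to day 2 no muscle gene was called for late minus early (background 0.033%), late minus intermediate (0.00661%) or intermediate minus early (0%). At an unadjusted p under 0.05 there were 17, 23 and 0 muscle genes, and 552, 853 and 751 of all 15136 genes. Differences lay above 0 for 35, 35 and 10 of the 36 muscle genes, against 49.6%, 49.7% and 50.2% of all genes. The smallest adjusted p values were those of Cacna1s, with 1.65 (95% interval 0.89 to 2.42; limma adjusted p = 0.195) in late minus intermediate, and Chrna1, with 2.72 (1.43 to 4.01; adjusted p = 0.262) in late minus early. With day 0 replicate 1 alone these were 1.64 (limma adjusted p = 0.456) and 1.81 (0.839), again with 0 calls. From day 1 to day 2 the counts were likewise 0, 0 and 0 (backgrounds 0%, 0% and 0%). Unadjusted they were 1, 3 and 0, against 439, 392 and 313 of all genes. A larger rise in late cultures was therefore not called for any single muscle gene, and the set as a whole was not tested.

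Replicate gaps of the intermediate cultures were set out gene by gene, since replicate 2 there carried the heart transcripts. In all 4 intermediate culture groups replicate 2 was the higher array for 9 muscle genes: Myl4, Myh7, Actc1, Acta1, Tnnt2, Tnnc1, Tnni1, Actn2 and Smpx. In the group with BMP4 on day 1, Myl4 read 5.78 and 7.45, Myh7 5.16 and 7.36, Tnnt2 5.85 and 7.21 and Tnni1 5.84 and 7.04. In the same pair of arrays Myl1 read 7.71 and 5.97, Mylpf 6.95 and 4.96, Myh3 6.92 and 4.69 and Tnnc2 6.06 and 4.26. The first 4 genes were higher and the last 4 lower in replicate 2 of that group. In the other groups the last 4 did not keep this direction: on day 2 all of them were higher in replicate 2, by 0.33 to 1.33 in control and 0.92 to 1.36 with BMP4. These genes were picked after their values were seen, and the part of heart tissue in the gaps was not tested. In early cultures 17 of the 36 genes were the lower in replicate 2 in all 4 groups, and in late cultures 4 were.

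**Figure D4:**
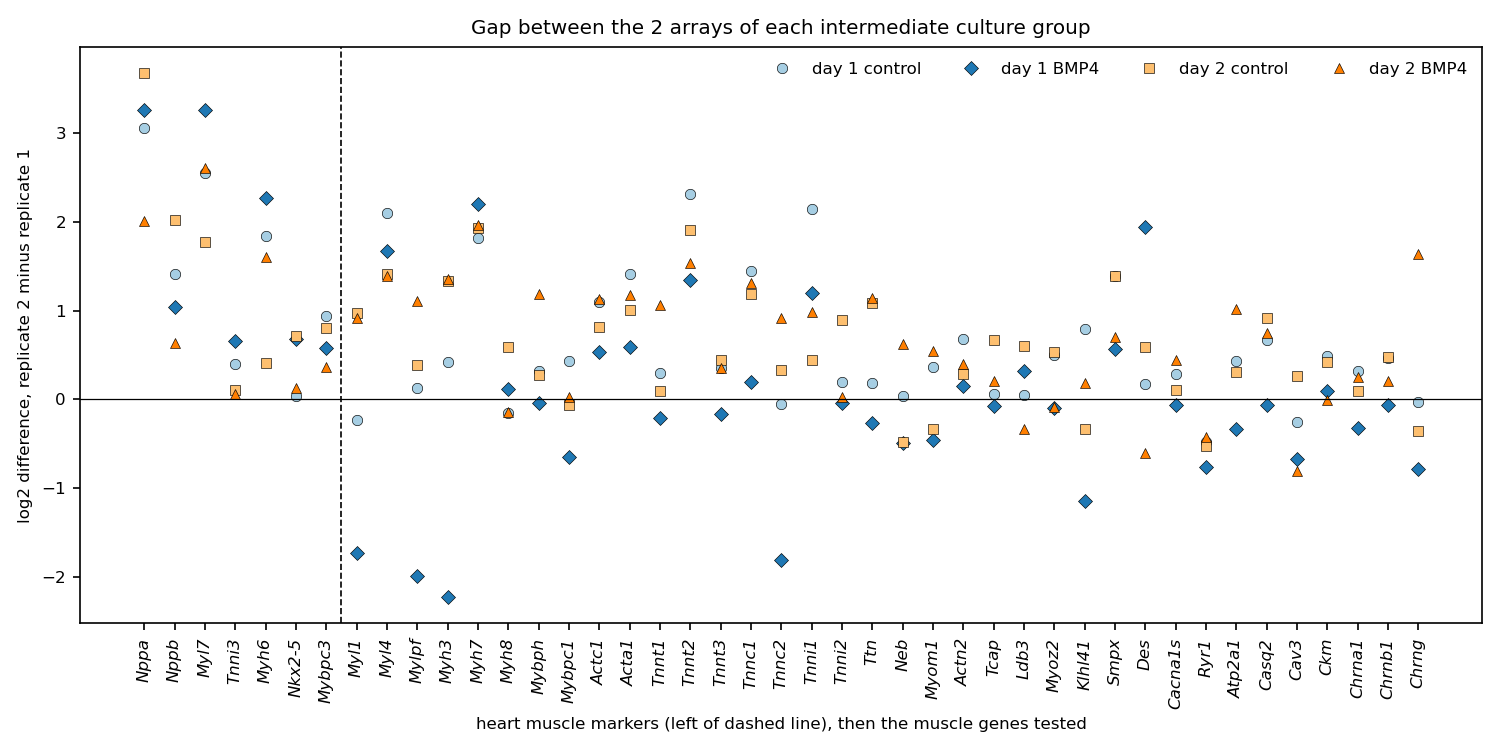
Gap between the 2 arrays of each intermediate culture group (replicate 2 minus replicate 1, log2 scale) for 7 heart markers, left of the dashed line, and the 36 muscle genes tested. In the day 1 group with BMP4 (dark diamonds) Myl4, Myh7, Tnnt2 and Tnni1 lie above 0 and Myl1, Mylpf, Myh3 and Tnnc2 below, while on day 2 all 8 lie above 0.

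BMP4 did not change any of the 36 muscle genes past the threshold in any population or day. On day 1 the calls were 0 in early (background, either direction, 2.45%), 0 in intermediate (0.238%) and 0 in late cultures (0.0793%), and on day 2 they were 0 (5.68%), 0 (0.00661%) and 0 (0.0132%). By limma without adjustment, 2, 0 and 1 muscle genes had a p under 0.05 on day 1 and 0, 0 and 5 on day 2. Of all 15136 genes, 2274, 1134 and 1144 did on day 1 and 3088, 686 and 712 on day 2. Median differences were -0.33, 0.02 and -0.49 on day 1 and -0.01, 0.41 and 0.32 on day 2 in early, intermediate and late. In intermediate cultures of day 2, 34 of 36 genes lay above 0, where 53.3% of all genes did, and in late cultures of day 1, 6 of 36 did, where 50.6% of all genes did.

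Intervals were wide. For Myl1 in late cultures, controls of 10.27 and 10.17 met BMP4 values of 10.13 and 8.81 on day 1 (95% interval of the difference -2.54 to 1.04). On day 2 controls of 10.61 and 10.76 met 11.01 and 11.08 (-1.43 to 2.15). The widths use 1 spread per gene pooled over all 15 groups, so they do not reflect the late arrays alone. For Myl1 the standard deviation between replicates was 0.11 in late day 2 control and 0.05 in late day 2 BMP4. It was 2.67 in early day 2 BMP4 and 1.79 in early day 1 control. The late BMP4 replicates of day 1 were unequal across the set, with 35 of 36 genes lower in replicate 2. Actc1 was better measured, with late differences of 0.04 (-0.76 to 0.83) and 0.11 (-0.69 to 0.90). Chrna1 read 8.40 and 7.79 with BMP4 on day 1 and 9.11 and 9.06 on day 2 in late cultures, for differences of -0.53 (-1.44 to 0.38) and 0.20 (-0.71 to 1.11).

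The genes with an unadjusted p under 0.05 did not share a direction. Des in early cultures of day 1 read 5.00 and 4.82 in control and 6.64 and 6.58 with BMP4, without overlap, a difference of 1.70 ± 0.61 (limma adjusted p = 0.172), and it was called when only these 4 arrays were fitted. Acta1 in the same cultures was lower, at 7.98 and 8.91 against 8.97 and 10.19, by -1.14 ± 0.45. Mybph in late cultures of day 1 read 7.14 and 7.15 in control and 6.12 and 5.01 with BMP4 (-1.58 ± 0.55, limma adjusted p = 0.425), and on day 2 it read 7.81 and 8.11 against 8.31 and 8.58.

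On day 2 late cultures with BMP4 read higher for Neb (7.22 and 7.87 against 6.68 and 6.72), Ryr1 (6.72 and 7.08 against 5.90 and 6.25), Cacna1s (6.45 and 6.69 against 6.05 and 6) and Chrnb1 (7.99 and 8.03 against 7.34 and 7.20). Cav3 read lower (5.51 and 4.53 against 5.83 and 5.69). None of these 5 pairs of groups overlapped, and all adjusted p values were 0.986 or 1. In early cultures of day 2, BMP4 replicate 1 and replicate 2 read 9.49 and 5.71 for Myl1 and 8.76 and 4.55 for Mylpf, on either side of the controls (9.23 and 8.01, and 8.42 and 7.07). Without that replicate 1, Myl1, Mylpf and Myh3 were called, all lower with BMP4.

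**Figure D5:**
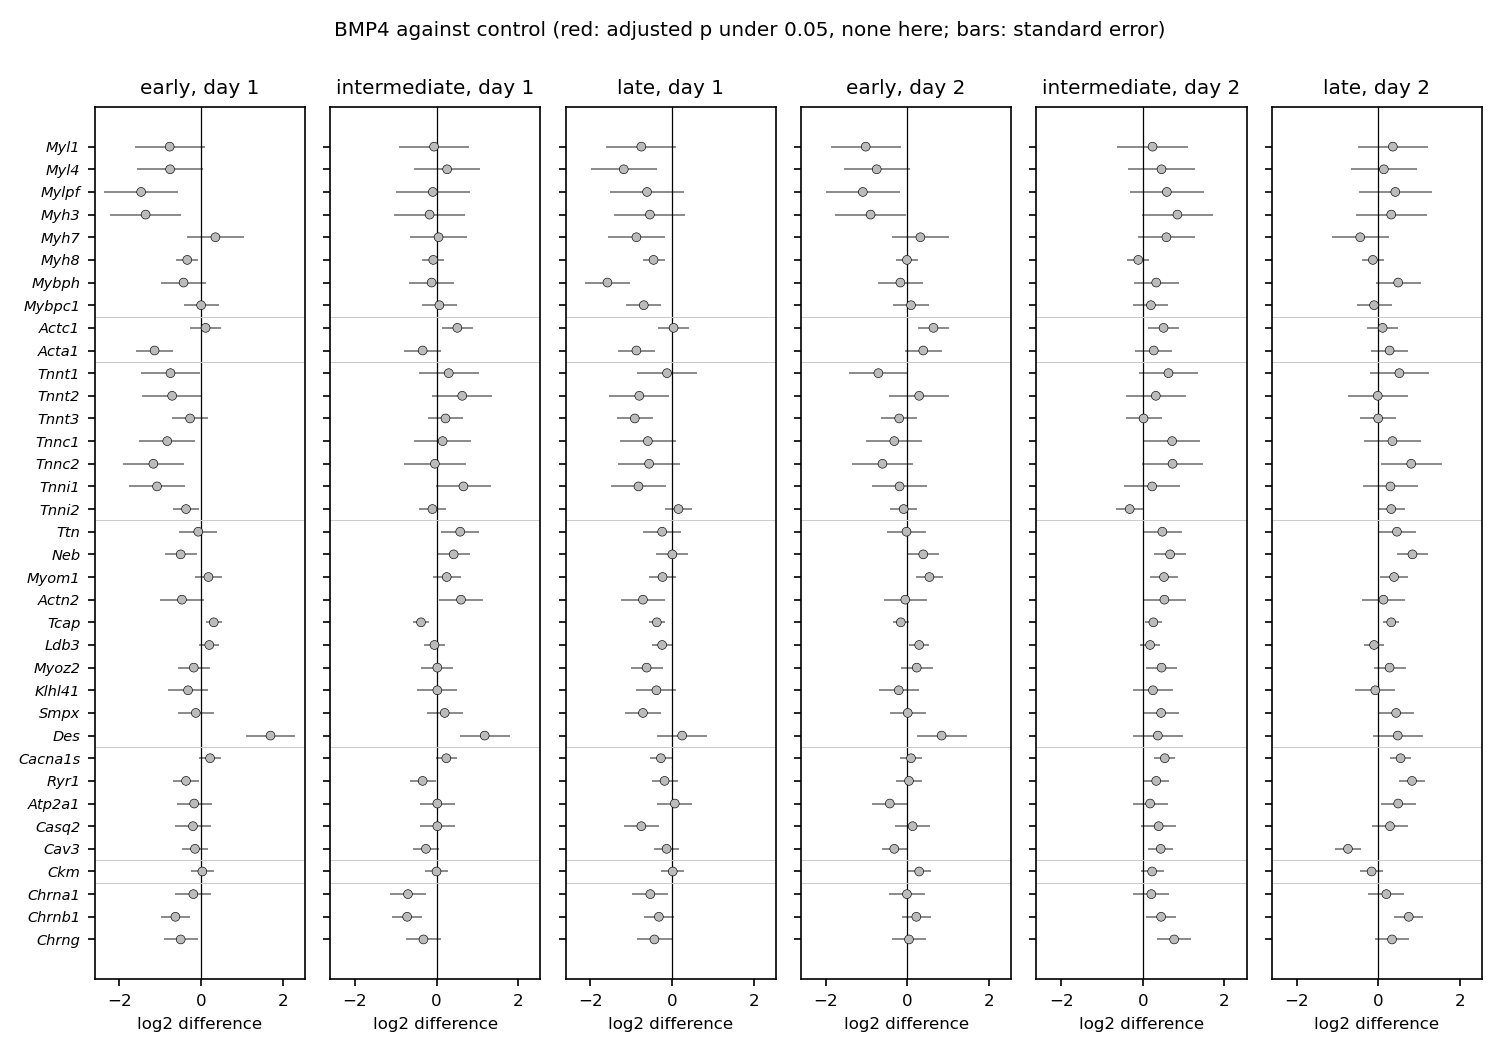
Difference of log2(signal + 16) between BMP4 and control cultures for the 36 muscle genes in the 6 population and day groups; points are limma estimates and bars standard errors. No point has an adjusted p under 0.05, and the medians lie between -0.49 and 0.41.

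The BMP4 response did not differ between populations in any muscle gene by the test of the difference. For late minus early, late minus intermediate and intermediate minus early the counts were 0, 0 and 0 on day 1 (backgrounds 0.0264%, 0% and 0.0264%). On day 2 they were 0, 0 and 0 (0.211%, 0.00661% and 0.271%). At an unadjusted p under 0.05 there were 1, 0 and 1 and then 0, 1 and 0 muscle genes. Of all genes there were 820, 424 and 620 and then 1614, 589 and 1390.

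Other genes of the same pathway were read from lists of related genes. Of 10 myogenic regulators tested, 6 rose in late cultures by day 2: Mef2c by 2.74 ± 0.29, Mymk, the fusion protein myomaker, by 4 ± 0.60, Cdh15 by 2.44 ± 0.38 and Myog by 4.31 ± 0.68, together with Myod1 and Myf5. In early and intermediate cultures Myod1, Myog and Mef2c rose, and Pax3, a gene of migrating precursors, fell in early cultures by 1.16 on the log2 scale. The list mean ran from 7.31 to 7.71 in late cultures, 5.56 to 6.92 in distal ones and 5.30 to 6.39 on day 0, so late arrays were apart from the rest. With day 0 replicate 1 alone, 5 regulators rose in late (without Myf5), and Pax3 and Lbx1 fell there. Myod1 and Mef2c rose in early, Myog and Mef2c in intermediate, and Pax3 was not called in early (-0.86, limma adjusted p = 0.0965).

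Of 27 other sarcomere genes tested, 15 rose in late cultures and 1 fell, against 6 and 7 risen in early and intermediate. The shares of all genes called higher were 16.9% in late, 14.8% in early and 17.6% in intermediate. The distal counts of this list and of the triad, junction and energy lists lie near or slightly above the background. With day 0 replicate 1 alone, 12, 4 and 4 rose. Unc45b, a myosin chaperone, rose by 2.85 ± 0.36, Lmod3, which nucleates thin filaments, by 2.21 ± 0.29 and Trim63, a muscle ubiquitin ligase, by 2.18 ± 0.30. The tropomyosin Tpm1 rose by 2.25 in early, 2.60 in intermediate and 2.08 in late cultures, and it is also made by non-muscle and smooth muscle cells. Myoz3, a Z-disc gene of fast fibres, fell in late cultures by 1.23.

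In the remaining muscle lists 6 of 13 triad and calcium genes rose in late cultures (Srl by 1.66 ± 0.24, Hrc by 1.23 ± 0.18), with 2 in early and 3 in intermediate ones. Backgrounds for these and the next counts were 16.9% in late, 14.8% in early and 17.6% in intermediate. Of 7 other junction genes 3 rose, among them Rapsn, which clusters the receptor, by 1.42 ± 0.34, and of 6 energy genes 3 rose, among them Fabp3 by 1.61 ± 0.22 and Pgam2 by 1.82 ± 0.32. In early and intermediate cultures 1 junction gene (Agrn) and 1 energy gene (Fabp3) rose, and Lrp4 and Ache fell in intermediate. With day 0 replicate 1 alone the late counts were 6, 1 and 2. None of the 6 heart genes tested was called by limma in any of the 3 populations, with a list median of -0.27 in late and 0.67 in intermediate cultures. Smooth muscle genes rose in every population, 6 of 8 in early and 7 of 8 in intermediate and late, well above the same backgrounds. Their list mean ran from 5.41 to 5.55 on day 0, from 7.72 to 9.40 in distal cultures and from 7.72 to 8.71 in late ones. Acta1 and Actc1, which rose likewise in all populations, can be made by smooth muscle and contractile fibroblasts, and the part of such cells in their values was not tested.

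The labelled cell type, limb mesenchyme, was checked by the mean of 6 markers. It ran from 9.51 to 9.95 on day 0, 8.64 to 9.17 in distal and 9.03 to 9.39 in late cultures. Single markers did not move together. With day 0 replicate 1 alone, Msx1 changed by -2.72, -2.37 and -2.99 to day 2 in early, intermediate and late cultures. Twist1 changed by -1.59, -1.54 and -1.7, and Prrx2 by -2.1, -1.34 and -1.01. Twist2 changed by 1.21, 1.15 and 0.33, Prrx1 by -0.08, 0.27 and 0.11, and Meox2 by 0.58, -0.12 and 0.04. Other cell types also changed between day 0 and culture. Cartilage genes ran from 6.88 to 7.52 on day 0, from 8.53 to 10.17 in late and from 7.56 to 10.25 in distal cultures. Red cell genes lay at 9.41 to 11.39 on day 0 and at 4.31 to 5.66 in culture, with replicate 1 the higher array in every group. Endothelial genes lay at 6.22 to 6.92 on day 0 and at 5.05 to 5.75 in culture. Their part in the rise of muscle genes against day 0 was not tested. Muscle genes were therefore measured in the RNA of mixed cultures.

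Outside the set, the genes whose level over the 30 arrays was most like the mean of the 36 were Arpp21 (Pearson r = 0.973), Myog (0.968), Mymk (0.965), Mylk4 (0.962), Mymx (0.962), Apobec2 (0.959), Hjv (0.953) and Ablim3 (0.952). Arrays share populations and days, so these values describe likeness across 15 groups and carry no test. In late cultures these 8 genes changed from day 0 to day 2 by between 2.20 (Apobec2) and 4.31 (Myog).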

How the data were processed

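Gene expression was measured on 30 Affymetrix mouse arrays of 45101 probe sets. The deposited values are linear signal intensity made by the authors with MAS5, per the submitters' processing notes; its version was not given in the sources used here. On every array the deposited values averaged 150 after the extreme 2% at each end were trimmed. No detection calls were used here, so a probe set was kept when above its array's 40th percentile (signal 20.3 to 30.5) on at least 2 arrays, and the brightest kept probe set of each gene was used. Symbols came from the platform annotation.

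Intensity was used as log2(signal + 16) in 1 fit of the 15 group means with limma 3.58.1 in R 4.3.3 (15 residual degrees of freedom, mean-variance trend, no replicate block), two-sided, with Benjamini-Hochberg adjustment per comparison over all 15136 genes. Simulated data with known changes were run for 2 comparisons: called genes had the right sign, which was not required of genes left uncalled, and the share of false calls exceeded the nominal one for early BMP4 on day 2 and not for late day 2 against day 0. Calls near the threshold are therefore less certain than their adjusted p states. In all, 36 comparisons were made. Comparisons that share a day 0 or control group are not independent. The p-values measure the spread between the 2 arrays of a group, as 1 value per gene pooled over all 15 groups. That pool includes the day 0 pairs with doubtful labels and the 4 arrays with heart transcripts. Having 2 arrays per group limits their precision.

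The members, the lists of related genes and the tests were chosen with earlier results of these data known. Array values are given for the 2 genes of each role with the smallest adjusted p in late cultures from day 0 to day 2 and up to 4 called genes of every other comparison; for other lists, up to 4 genes are named. Other genes named singly, the promoters and motifs, the counts of arrays without overlap, the heart gene check, the comparison of changes from day 0 and the omission of the 4 intermediate arrays were chosen after seeing the data. Alternatives were median centring, quantile normalization, a pseudocount of 1, no filter, the mean of a gene's probe sets, a fit of only the arrays compared, the replicate block, day 0 replicate 1 alone and each array left out. Promoters are RefSeq windows of GRCm38.p6, matched by symbol.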

Additional observations from a re-analysis of the deposited data

How the results depend on the processing

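Counts of called muscle genes kept within 1.5 times of those reported under median centring, quantile normalization, no filter and the mean of a gene's probe sets, except where given here. Of 604 repeats for the 49 named genes by comparison, 534 kept direction and call, 70 kept direction but lost the call and 0 reversed. Most calls lost were in comparisons of populations. Ttn lost its day 1 calls between populations when its probe sets were averaged (1.07 and 0.97).

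A pseudocount of 1 gave 8 and 11 genes from day 0 to day 1 in early and intermediate, 0 from day 1 to day 2 in late, 3 and 5 for late minus early and late minus intermediate on day 1, and 0 and 3 on day 2. A fit of only the arrays compared gave 2 from day 1 to day 2 in late (Myl4, Tnni1), 3 for late minus early on day 2, 1 for BMP4 in early on day 1 and 2 for the late minus intermediate change from day 0 (Mybph, Tnnc2). Day 0 replicate 1 alone gave 7 in intermediate from day 0 to day 2 and 7 for late minus early on day 1. Without the 4 arrays with heart transcripts, a choice made after seeing the data, intermediate had 5 and 2 calls from day 0 to days 2 and 1, and late minus intermediate 7 on day 1.

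Leaving out 1 array at a time gave 5 to 16 in early and 5 to 12 in intermediate from day 0 to day 2, 2 to 6 and 2 to 8 from day 0 to day 1, and 0 to 0 from day 1 to day 2 in late. Late minus early gave 0 to 7 on day 1 and 0 to 8 on day 2, late minus intermediate 0 to 4 and 3 to 7, and BMP4 in early on day 2 gave 0 to 3. The lone array left in a group is assumed to vary like the others.

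Deviations of same-numbered arrays correlated at -0.125 to 0.349 (median 0.121) over 105 pairs of groups. They exceeded 0.1 in 60 pairs but not in every pair. The labels give no shared source, so the main fit did not treat the number as pairing samples. The red cell list mean was still higher in replicate 1 of every group, as with 11.39 and 9.41 in intermediate on day 0. Heart transcripts in intermediate cultures also followed the number, as did 17 muscle genes in early cultures. Whether same-numbered arrays shared a preparation was not tested. With the number as a block, late minus early on day 1 had 16 calls and late minus intermediate 19, and day 2 minus day 0 had 14, 17 and 34 in early, intermediate and late. No count moved by over 1.5 times. Median centring of each array moved the median of all genes to -0.12 to -0.23 in comparisons with day 0, and in late cultures from day 0 to day 2 it turned 2554 higher and 1611 lower genes into 1579 and 3426. Dim genes near the floor, such as Cav3, Cacna1s and Myh8, are limited by their signal over background.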
